A study of Aspergillus nidulans with 6 samples.

Results

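Of the 468 chromatin regions (peaks) called in the ChIP-Seq data of KaeA-HA in *Aspergillus nidulans*, 220 were given a location that begins with "Exon" in the authors' annotation, and these exon peaks are described here. The class was taken from the annotation alone, so no read count was used to choose them. The tested DNA was immunoprecipitated (IP) with the anti-HA 12CA5 antibody, and the DNA it was set against was input, taken before immunoprecipitation, with 3 libraries numbered 1 to 3 on each side. All 6 libraries came from mycelium grown in liquid minimal medium, treated with 1% formaldehyde for 15 min and sonicated for 25 min. In the labels all 6 libraries share kaeA fused to HA with A.f. pyrG as marker, pyrG89, argB2, pabaB22 and nkuAΔ::argB. They also carry an allele of riboB, whose number runs in the labels from 2 to 7. The paper gives riboB2 for the strain used for ChIP-Seq. IP and input thus share every allele in the labels apart from the riboB number. No library of an untagged strain was analysed here. The counts of the 6 libraries on the 468 peaks summed to between 162458 and 377238, and on a single exon peak they lay between 66 and 3232.

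KaeA is a subunit of KEOPS, a conserved protein complex that makes the threonylcarbamoyl modification of tRNAs reading codons that begin with A. It is not known to bind DNA by itself, so regions precipitated with it are thought to be reached through other proteins. A peak marks a place where IP reads piled up above the local input. The exon class is meant for peaks in the transcribed and mostly coding body of a gene, unlike a promoter or 5′ UTR peak, which lies where transcription is started.

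The exon peaks were short, and most sat inside gene bodies. Their median length was 322 bp (range 184 to 2655), against 536.5 bp for the 248 peaks of all other classes. The RefSeq genes of ASM1142v1 place 218 of the 220 on exactly 1 gene, 1 of them a pseudogene, and 184 lay wholly within the limits of that gene. The remaining 2 of the 220 overlapped no RefSeq gene, and 14 summits, those 2 included, lay outside the limits of a gene. The median exon peak covered 14.3% of its gene, and 30 covered at least 50%. In all, 176 genes carried an exon peak, and 36 of these carried more than 1, for 78 peaks together. Peaks within 1 gene, and the 38 neighbouring pairs less than 1 kb apart, are not independent regions. By the exon number of the annotation, 87 peaks were in exon 1 and 69 in exon 2. The exon totals were not used, since 219 of 220 peaks were listed as belonging to a gene of 10 exons, including 1 in exon 11. Chromosome VIII held 52 exon peaks, 23.6% of them, against 16.7% of the RefSeq genes. Chromosome I held 35 peaks (15.9%, against 12.6% of the genes), chromosome VII 19 (8.64%, against 14.9%) and chromosome IV 11 (5%, against 9.45%). The median pileup, the number of overlapping IP fragments at the highest point of a peak, was 168 (range 141 to 593), and the median fold enrichment that MACS2 gave for merged IP over merged input was 1.48 (range 1.20 to 4.01), against 1.53 over all 468 peaks.

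Exon peaks took a smaller share of the counts in IP than in input. They held 28.3%, 27.97% and 29.1% of the counts on all peaks in IP libraries 1, 2 and 3, against 31.5%, 31.1% and 30.8% in input libraries 1, 2 and 3. The means were 28.4% ± 0.559 in IP and 31.1% ± 0.355 in input (SD, n = 3 each), a difference of -2.67 percentage points, and the groups did not overlap. Shares of 1 total move together, and the 51 peaks classed as 5′ UTR held 26.2% ± 1.56 in IP and 19.7% ± 0.366 in input (SD, n = 3 each). A lower share in IP was not particular to exon peaks: the 76 peaks classed as 3′ UTR held 25.8% ± 1.07 in IP and 27.7% ± 0.187 in input, and the 90 distal intergenic peaks 14.3% ± 1.03 in IP and 16.2% ± 0.245 in input (SD, n = 3 each), also without overlap. Without the peak that held the most counts, which was not an exon peak, the difference for exon peaks was -3.91 points. With 3 libraries on each side, an exact permutation test cannot give a two-sided p below 0.1, so single peaks were tested with the spread that edgeR shares across all peaks.

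**Figure D1:**
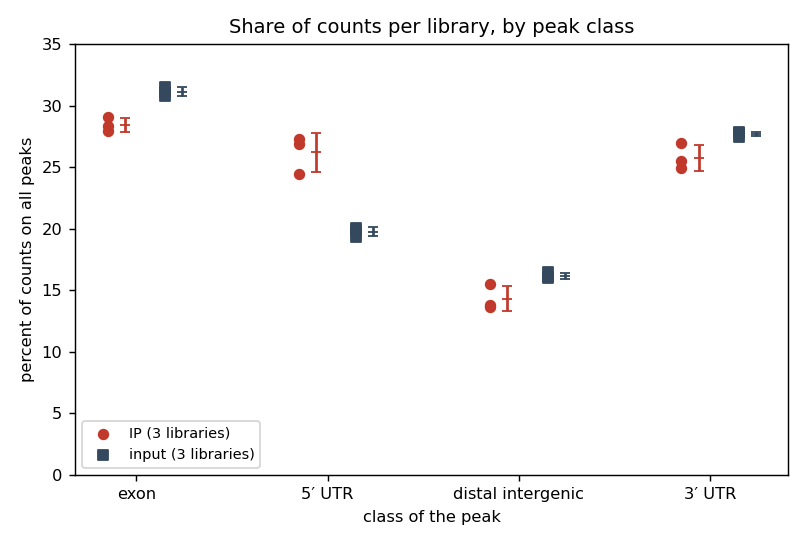
Percent of each library's counts on all 468 peaks (y axis, from 0) that lay on peaks of 4 location classes (x axis), with the 3 IP libraries left of the 3 input libraries and the mean with its SD beside each group. The 3 IP libraries lie below the 3 input libraries for exon peaks (28.4% against 31.1% on average), for distal intergenic peaks (14.3% against 16.2%) and for 3′ UTR peaks (25.8% against 27.7%), and above them for 5′ UTR peaks (26.2% against 19.7%).

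Few exon peaks differed between IP and input, and those that did were mostly lower in IP. With edgeR's quasi-likelihood test over all 468 peaks and a Benjamini-Hochberg adjusted p under 0.05, 21 of the 220 exon peaks (9.55%) were called, against 16.2% of all peaks. Of these, 5 (2.27%) were higher in IP, against 11.1% of all peaks, and 16 (7.27%) were lower in IP, against 5.13% of all peaks. The other 199 exon peaks were not called, and 40 of the 220 had an unadjusted p under 0.05, against 121 of all 468 peaks. DESeq2 called 20 exon peaks, all among these 21, and left out only AN0376. Every IP library was above every input library at 16 exon peaks, against 16.5% of all peaks, and below every input library at 32, against 11.3% of all peaks. The median log2 fold change of IP over input was -0.04 for exon peaks (range -0.50 to 0.55), with 79 above 0 and 141 below, and -0.02 for all peaks. These values are on a scale set by the peaks themselves (TMM factors, between 0.947 and 1.04), so "lower in IP" means lower than the typical peak of the list. When the values were rescaled to the median MACS2 fold enrichment, 461 of all 468 peaks were called, so nearly every peak was called on that scale. Of the exon peaks, 214 were called higher and 0 lower. All 16 peaks called lower on the TMM scale then had log2 fold changes above 0, from 0.13 to 0.37, with 10 of them called higher. Single libraries weighed on the counts over the whole list. Exon calls numbered 8 without IP library 1, 44 without IP library 2 and 14 without IP library 3, against 47, 132 and 62 of all 468 peaks. They numbered 10, 11 and 11 without input libraries 1, 2 and 3, against 49, 52 and 53 of all 468 peaks.

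The 16 peaks lower in IP lay on 14 genes, and 5 of these genes had a mobile element domain at the peak. Retrotransposons move by copying their RNA into DNA with a reverse transcriptase and, in many families, inserting the copy with an integrase. DNA transposons are instead cut out and moved by a transposase, and LINE elements are retrotransposons without long terminal repeats. The authors translated each peak and searched it for Pfam protein domains, and 5 exon peaks had a reverse transcriptase or integrase domain. All 5 were called lower in IP (background 5.13%) on the TMM scale, with a median log2 fold change of -0.36. The rescaling above called 461 of all 468 peaks. These 5 were then called higher, with log2 fold changes from 0.24 to 0.37 (adjusted p from 0.000609 to 0.0382, edgeR). None of the 5 calls held in every fit that left out 1 library: AN10846, AN2670 and AN2714 were called in 2 of the 6, and AN10256 and AN0376 in 1 of the 6, and the highest adjusted p of each over these fits ran from 0.102 (AN10846, without input library 1) to 0.202 (AN10256, without IP library 1) in edgeR. AN0376 was also not called with DESeq2, with its size factors or with the replicate block.

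Reverse transcriptase domains were found in peaks of AN2670, AN2714 and AN0376. The AN2670 peak (ASM1142v1, chromosome VI, 3147018 to 3147384, exon 3) had normalized counts of 397, 443 and 366 in IP libraries 1 to 3, against 485, 508 and 569 in input libraries 1 to 3, giving a log2 fold change of -0.37 ± 0.10 (± marks the standard error here and for the other peaks, adjusted p = 0.0161, edgeR). The AN2714 peak (chromosome VI, 3006442 to 3006827, exon 2) had 323, 352 and 309.5 in IP, against 388, 446 and 431 in input, giving a log2 fold change of -0.36 ± 0.10 (adjusted p = 0.0174, edgeR). The AN0376 peak (chromosome VIII, 3683761 to 3684546, exon 7) had 579, 641 and 552 in IP, against 700.4, 726 and 697 in input, giving a log2 fold change of -0.26 ± 0.09 (adjusted p = 0.0438, edgeR). In all 3 peaks the IP libraries were the low ones and the groups did not overlap. AN2714 and AN0376 each carried a further exon peak that was not called, with log2 fold changes of -0.33 (adjusted p = 0.106, edgeR) and -0.34 (adjusted p = 0.0741, edgeR).

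Integrase core domains were found in peaks of AN10846 and AN10256. The AN10846 peak (chromosome I, 3154890 to 3155349, exon 4) had normalized counts of 365, 425 and 335 in IP, against 522, 453 and 508 in input, giving a log2 fold change of -0.40 ± 0.11 (adjusted p = 0.0133, edgeR). For the AN10256 peak (chromosome VII, 2568502 to 2569033, exon 6) the counts were 391, 515 and 397 in IP, against 532, 524 and 591 in input, giving a log2 fold change of -0.34 ± 0.11 (adjusted p = 0.0403, edgeR). Again the groups did not overlap, although IP library 2 of AN10256 came close to the lowest input library. A second exon peak of AN10256, with no domain row, was not called (log2 fold change -0.20, adjusted p = 0.328, edgeR).

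The 2 exon peaks with a DNA transposase domain were not called. The peak of AN10066 (chromosome VIII, 3790420 to 3790772, Transposase) had 362, 373 and 358 normalized counts in IP, against 396, 393 and 384 in input, a log2 fold change of -0.10 (adjusted p = 0.610, edgeR). AN0532 (chromosome VIII, 3211235 to 3212237, DDE superfamily endonuclease and Tc5 transposase DNA-binding domains) had 666, 873 and 735 in IP, against 870.2, 761 and 733 in input, a log2 fold change of -0.06 (adjusted p = 0.822, edgeR). The IP libraries lay below all input libraries at AN10066 and overlapped them at AN0532. The difference between retroelement and transposase peaks was not tested.

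A further 5 genes under the lower peaks had no domain row there but are annotated as mobile element genes in the study's tables, which cover only genes selected by the study from these libraries. Genes outside those tables could not be annotated in this way, so no share over all exon peaks is given. AN2661, AN10649 and AN8648 are annotated as RNA-directed DNA polymerase (as is AN0376), another name for reverse transcriptase, and AN2711 and AN2796 as open reading frames of LINE transposons. The AN2661 peak (chromosome VI, 3178844 to 3179088, exon 4) had 419.7, 554 and 453 normalized counts in IP, against 689, 690.2 and 606 in input, giving a log2 fold change of -0.49 ± 0.11 (adjusted p = 0.00263, edgeR). At AN8648 (chromosome III, 3207165 to 3207514, exon 1) the counts were 555, 755 and 602 in IP, against 807, 818 and 802 in input, giving a log2 fold change of -0.35 ± 0.10 (adjusted p = 0.0215, edgeR). IP was below input in every library of both peaks, with IP library 2 the highest of the IP libraries in each.

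AN10649 carried 3 exon peaks on chromosome V, of which 2 were called. The peak at 1396005 to 1396259 had 442, 530.4 and 443 normalized counts in IP, against 672, 641 and 636 in input, giving a log2 fold change of -0.47 ± 0.09 (adjusted p = 0.00148, edgeR). The peak at 1397288 to 1397503 had 205, 252 and 232 in IP, against 311, 274 and 320.4 in input, giving a log2 fold change of -0.39 ± 0.12 (adjusted p = 0.0236, edgeR). The third, at 1394215 to 1394610, had 334, 406 and 375 in IP, against 451, 467 and 433 in input, a log2 fold change of -0.28 (adjusted p = 0.0628, edgeR). IP was below input in every library at all 3 places in the gene.

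Both LINE reading frames lay on chromosome VI. AN2711 (3015798 to 3015990, exon 2) had 275, 365 and 339 normalized counts in IP, against 439.9, 438 and 420.4 in input, giving a log2 fold change of -0.42 ± 0.11 (adjusted p = 0.0125, edgeR). AN2796 (2735163 to 2735631, exon 1) had 772, 942 and 771 in IP, against 1136, 1139.5 and 1000.1 in input, giving a log2 fold change of -0.40 ± 0.09 (adjusted p = 0.00422, edgeR). The AN2796 peak had the highest pileup of all exon peaks, 593, and the next 4, at AN5470, AN8648, AN10649 and AN2661 (475 to 499), were also lower in IP on the TMM scale. The groups overlapped in neither LINE peak.

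The remaining 4 genes, AN2795, AN7095, AN5470 and AN6968, had neither such a domain nor such an annotation. AN2795 (chromosome VI) lies beside AN2796 and had the lowest log2 fold change of the exon peaks, -0.50 ± 0.09 (adjusted p = 0.000672, edgeR), in its peak at 2737281 to 2737551, with 414, 488 and 488 normalized counts in IP, against 681, 621 and 663 in input. Its second peak, at 2738127 to 2738332, had 266, 332 and 298 in IP, against 381, 389.5 and 350.0 in input, giving a log2 fold change of -0.33 ± 0.11 (adjusted p = 0.0395, edgeR). At both places every IP library was below every input library. AN7095 (chromosome IV, 1037334 to 1037627) had 460.2, 565 and 505 in IP, against 715, 669 and 670.4 in input, giving a log2 fold change of -0.43 ± 0.09 (adjusted p = 0.00281, edgeR). AN5470 (chromosome V, 2447208 to 2447530) had 552, 544 and 560.3 in IP, against 721, 669 and 794 in input, giving a log2 fold change of -0.39 ± 0.09 (adjusted p = 0.0036, edgeR). In the weakest of these peaks by read number, AN6968 (chromosome I, 3686538 to 3686740), the counts were 183, 212 and 186 in IP, against 273, 219 and 277 in input, giving a log2 fold change of -0.40 ± 0.13 (adjusted p = 0.0350, edgeR). The groups did not overlap in any of the 3, though IP library 2 of AN6968 nearly reached input library 2.

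**Figure D2:**
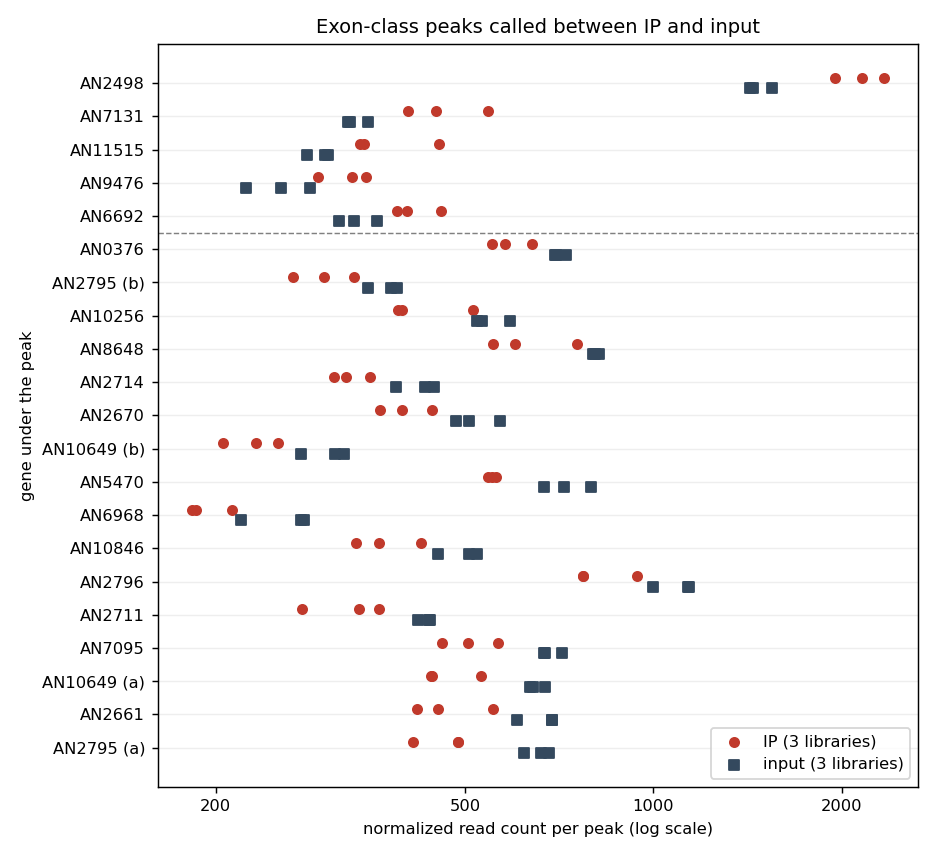
Normalized read count per peak (x axis, log scale) in the 3 IP libraries (circles, upper of each pair) and the 3 input libraries (squares) for the 21 called exon peaks, named by gene, with (a) and (b) for the 2 called peaks of AN2795 and of AN10649. On the TMM scale, all IP libraries of the 5 peaks above the dashed line lie to the right of input. All IP libraries of the 16 peaks below it lie to the left. After rescaling to the MACS2 fold enrichment all 16 log2 fold changes are above 0 and 10 are called higher, with 461 of all 468 peaks called.

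The lower peaks had high read density, and many lay close together on chromosome VI. Of the 16, 7 lay in a stretch of 444 kb there (2735163 to 3179088), which held 11 exon peaks in all. The limits of the stretch are those of the first and last called peak. All 16 lay wholly within their gene. Input density, the mean normalized input count per 100 bp of peak, was between 90.1 and 270 for the lower peaks (median 203), against 48.6 to 167 for the peaks not called (median 63.6). The IP libraries showed the same order, with 75.2 to 194 normalized IP reads per 100 bp in the lower peaks (median 157), against 49.8 to 161 in those not called (median 63.5). On the TMM scale these regions gave many reads in IP and more still in input. Among the 24 exon peaks of at least 120 input reads per 100 bp, 12 were called lower and all 24 had a log2 fold change below 0 (median -0.34). Among the 105 peaks between 60 and 80 reads per 100 bp, none was called in either direction (median -0.06). Over the 220 exon peaks, Spearman's rho between log2 fold change and input density was -0.70, which is a description across peaks of the same 6 libraries, and both measures contain the input counts. Input density moved with the calls, and its part in them was not tested. Mobile elements exist in families of similar copies, and how reads that fit more than 1 place were treated is not given in the sources used here, so counts on these genes may be shared between copies.

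**Figure D3:**
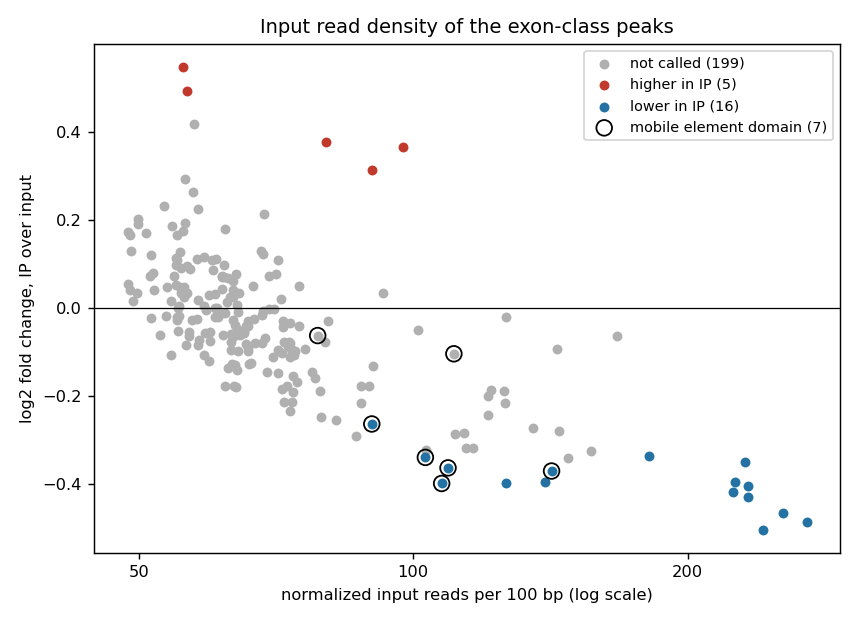
Log2 fold change of IP over input on the TMM scale (y axis) against the mean normalized input reads per 100 bp (x axis, log scale) for the 220 exon peaks, 1 point each, coloured by call and ringed where the peak has a mobile element domain. The 16 peaks lower in IP lie between 90.1 and 270 reads per 100 bp, to the right of most peaks not called (median 63.6), and after rescaling to the MACS2 fold enrichment their log2 fold changes are above 0.

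The 5 peaks higher in IP lay at the edges of genes. All were in exon 1 by the annotation, against 87 of all 220 exon peaks, and none had a domain row, which 128 of all 220 lacked. None of them lay wholly within its gene, against 184 of all 220 exon peaks, and the summit of 3 of the 5 fell outside the gene. Beyond the gene, the next gene was 85 bp from the AN7131 peak (AN7132) and 241 bp from that of AN11515 (AN6473). It was 401 bp from the AN2498 peak (AN11346) and 1427 bp from that of AN9476 (AN9475). Which gene each peak belongs to was not tested. Their MACS2 fold enrichment was between 2.81 and 4.01, while no exon peak that was not called exceeded 2.06. That enrichment was computed from the same libraries and is no separate evidence.

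The highest log2 fold change belonged to AN2498 (chromosome VII, 4083436 to 4086068), a peak of 2633 bp that covers 71.1% of the gene and extends 1357 bp beyond it. Its normalized counts were 2335, 1951 and 2158 in IP, against 1548, 1425 and 1442 in input, giving a log2 fold change of 0.55 ± 0.08 (adjusted p = 8.34e-05, edgeR). AN7131 (chromosome IV, 902372 to 902963) is annotated in the study's tables as a putative cytochrome P450, a family of oxygenases that contain haem. Of its peak, 21.5% lies beyond the gene. The AN7131 peak had 544, 406 and 451 in IP, against 326, 328 and 350.0 in input, giving a log2 fold change of 0.49 ± 0.11 (adjusted p = 0.00386, edgeR). IP was above input in every library of both genes, and these were the 2 higher peaks that were called in all 6 fits that each left out 1 library.

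The other 3 higher peaks were smaller and depended on single libraries. AN11515 (chromosome I, 40531 to 40896) had 455, 346 and 339.9 normalized counts in IP, against 299, 303 and 279.7 in input, giving a log2 fold change of 0.38 ± 0.12 (adjusted p = 0.0356, edgeR), and 81.7% of the peak lies beyond the gene. AN9476 (chromosome V, 705868 to 706127) had 347, 330.3 and 291 in IP, against 254, 224 and 283 in input, giving a log2 fold change of 0.36 ± 0.12 (adjusted p = 0.0387, edgeR). AN6692 (chromosome I, 2812174 to 2812547) had 458, 404 and 389.8 in IP, against 362, 315 and 333 in input, giving a log2 fold change of 0.31 ± 0.10 (adjusted p = 0.0438, edgeR). The groups did not overlap, but the lowest IP and highest input libraries of AN9476 were 291 and 283, and only 1.87% of the AN6692 peak lies on that gene, with the next gene, AN6693, 207 bp from the peak. Without the least favourable library the adjusted p rose to 0.264 for AN11515 (without IP library 1), and to 0.249 for AN9476 and 0.234 for AN6692 (both without input library 2, edgeR). Of the 16 lower peaks, 6 were called in all 6 such fits: AN2661, AN2796, AN5470, AN7095 and the peaks of AN2795 and AN10649 with the lowest log2 fold change. Over the same fits, the highest adjusted p of each of the other 10 lay between 0.0715 (AN2711) and 0.202 (AN10256), both without IP library 1 (edgeR).

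The median log2 fold change was higher in long than in short exon peaks. The 28 peaks of at least 1000 bp had a median log2 fold change of 0.05, with 1 called higher and 0 lower, against 11.1% and 5.13% of all peaks. Of these 28, 6 had an unadjusted p under 0.05, against 121 of all 468 peaks. At 9 of the 28 every IP library was above every input library, against 16.5% of all peaks. Of the 74 peaks under 250 bp, 0 were called higher and 5 lower (6.76%, against 5.13% of all peaks), and 14 had an unadjusted p under 0.05, with a median of -0.08. Most calls were in the next bin, of at least 250 bp and under 500 bp, where 3 of 79 peaks were higher and 9 lower (11.4%), with a median of -0.06. Of the 39 peaks of at least 500 bp and under 1000 bp, 1 was higher and 2 were lower, with a median of -0.02. Among the peaks of other classes with at least 1000 bp, 35 of 74 were called higher, against 11.1% of all peaks, with a median of 0.24. Of these 74, 44 had an unadjusted p under 0.05, against 121 of all 468 peaks. At 47 of them every IP library was above every input library, against 16.5% of all peaks. Whether the exon and other long peaks differ was not tested, and length itself comes from peak calling on the same libraries. Pfam domains were found in 92 exon peaks (119 rows, 91 different domains). The 92 peaks with a domain row had a median length of 421 bp and a median log2 fold change of -0.02. Of these, 0 were called higher, 5 lower (5.43%), and 14 had an unadjusted p under 0.05. The 128 peaks without one had a median length of 263 bp, with 5 called higher (3.91%), 11 lower (8.59%) and a median of -0.06. Over all peaks 11.1% were called higher and 5.13% lower, and the difference between peaks with and without a domain row was not tested. A short peak leaves less protein sequence to search, so domain content and length are not independent.

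**Figure D4:**
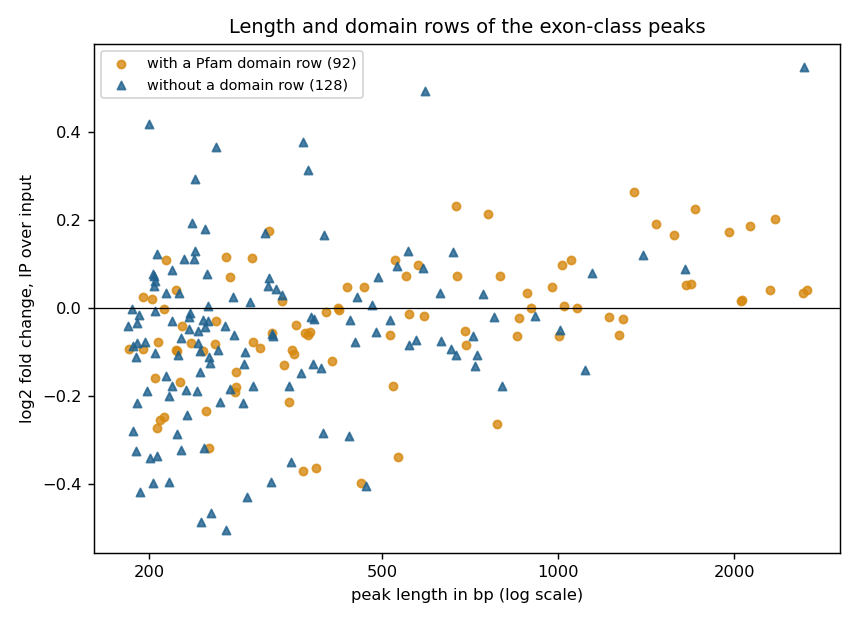
Log2 fold change of IP over input on the TMM scale (y axis) against peak length in bp (x axis, log scale) for the 92 exon peaks with a Pfam domain row (circles) and the 128 without (triangles). Peaks with a domain row are longer (median 421 bp against 263 bp), and the extremes in both directions, 0.55 and -0.50, belong to peaks without one.

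The domain classes other than mobile elements held no called peak, in edgeR or DESeq2. In edgeR 9.55% of all exon peaks and 16.2% of all 468 peaks were called. Apart from the 63 peaks with other domains, each of these classes held at most 6 peaks, so nothing is read from their lack of calls. In edgeR, 1 chaperone, 1 secondary metabolism and 8 other domain peaks had an unadjusted p under 0.05, against 40 of all 220 exon peaks. The *hsp88* peak is counted both as chaperone and as other. Transporters, which carry molecules across membranes, had 6 peaks with log2 fold changes between -0.06 and 0.07 (median 0.04). AN6237, with ABC transporter domains, had the longest exon peak of all (chromosome I, 792496 to 795150, 2655 bp), with 1534, 1313.5 and 1405 normalized counts in IP, against 1431, 1359 and 1347 in input, a log2 fold change of 0.04 (adjusted p = 0.849, edgeR). The groups overlapped there, and in the lowest transporter, the sugar transporter AN3357 (-0.06), as well. Transcription factor domains bind DNA or belong to proteins that do. The keywords for them matched 6 peaks (median 0.05), from -0.04 at *zpr1* to 0.17 at AN4878, with a CP2 domain (adjusted p = 0.573, edgeR). The *zpr1* peak enters only through the words zinc-finger in its domain name, which does not make the gene one of a transcription factor. The peak of *hapX*, which encodes a bZIP transcription factor, stands among the other domains. The AN9538 peak (chromosome VII, 2921916 to 2924538) covers the whole gene of a fungal specific transcription factor domain and had a log2 fold change of 0.03.

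Chaperone domains, of proteins that help others fold, were in 4 peaks (median 0.01). The *hsp88* peak (AN1047, chromosome VIII, 1631120 to 1632467), with an Hsp70 domain, had 956, 827 and 1003 normalized counts in IP, against 768, 832 and 719 in input, a log2 fold change of 0.26 (adjusted p = 0.0586, edgeR). AN6010, the other peak with an Hsp70 domain, had a log2 fold change of 0.05, and the DnaJ domain peaks of AN2238 and AN4192 had -0.04 and -0.06. At *hsp88* 2 of 3 IP libraries were above all input libraries and IP library 2 was within them. The keywords leave out other peaks of chaperones and folding factors, and those given here were picked after their values were seen. Among the other domains stand *hsp78* (0.22, adjusted p = 0.0741, edgeR), *wos2* (0.11), *fes1* (0.07) and AN4583, with a cyclophilin domain (-0.05). Also there are AN3027, with an Erv1 / Alr domain (-0.19), and AN10641, with a DSBA-like thioredoxin domain (-0.01). The 2 exon peaks of *sti1* have no domain row (-0.02 and -0.11). None of these peaks was called, against 9.55% of all exon peaks. Every IP library was above every input library at *hsp78* and *wos2*, and below every input library at AN3027 and the lower *sti1* peak. Secondary metabolism domains were in 2 peaks, both on genes of siderophore synthesis, the making of small molecules that bind iron. The *sidI* peak (AN0609, chromosome VIII, 2939177 to 2941302), with AMP-binding domains, had 1391, 1209 and 1341 in IP, against 1137, 1179 and 1152 in input, a log2 fold change of 0.19 (adjusted p = 0.147, edgeR). *sidD* (AN6236), a peptide synthetase gene, had 3 exon peaks with log2 fold changes of -0.15, -0.11 and 0.04. Every IP library was above every input library at *sidI* but at none of the *sidD* peaks. In the translation class, 3 peaks lay between -0.10 and 0.11, those at *erdS* with a tRNA synthetase domain (-0.10 and 0.03) and AN4218 with elongation factor Tu domains (0.11). The 3 peaks with repeat domains lay between -0.25 at AN8293 and -0.002 at AN2021, and the 1 protein kinase peak, AN4935, had 0.10. The 63 peaks with other domains had a median of -0.02, from -0.32 at AN7873, with a MaoC like domain (adjusted p = 0.0553, edgeR), to 0.26 at *hsp88*, whose sequence also matched a second domain.

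**Figure D5:**
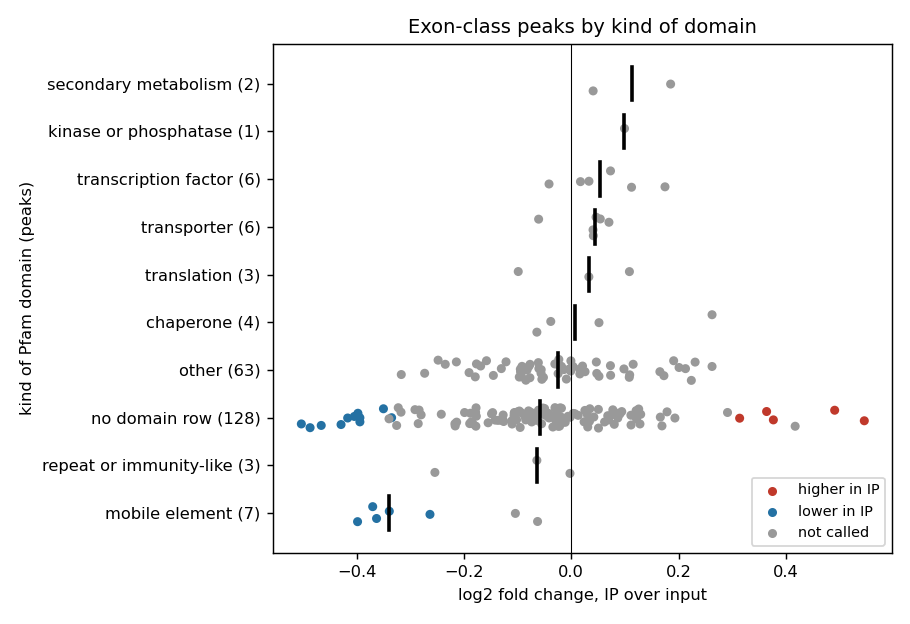
Log2 fold change of IP over input on the TMM scale (x axis) of the exon peaks by kind of Pfam domain (y axis, number of peaks in brackets), 1 point per peak and class, with a black bar at the median. Mobile element peaks have the lowest median (-0.34) and hold 5 of the 16 lower peaks, and all 5 higher and the other 11 lower peaks have no domain row; after rescaling to the MACS2 fold enrichment the 16 lower peaks lie above 0.

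AN9408 (chromosome VIII) carried 5 exon peaks, the most of any gene, with log2 fold changes between -0.06 and 0.03. Its longest peak, 543599 to 544869, has acyl transferase and MaoC like domains and had 603, 674 and 655 normalized counts in IP, against 658, 675 and 679.8 in input. The groups overlapped at each of the 5. AN4963, with 3 peaks, lay between 0.004 and 0.19. Where RefSeq gives a gene symbol, 33 peaks on 26 genes, none was called, against 9.55% of all exon peaks. Among these, chosen after their values were seen, *hapX* (AN8251, chromosome II, 1274432 to 1276389), which encodes a bZIP regulator of iron homeostasis, was covered whole by its peak. That peak had 1039.6, 1003 and 1175 in IP, against 919, 946 and 992 in input, a log2 fold change of 0.17 (adjusted p = 0.200, edgeR), so that IP was above input in every library without passing the test. The highest log2 fold change among exon peaks that were not called was 0.42 at AN0186 (adjusted p = 0.0566, edgeR), a peak of 200 bp.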

How the data were processed

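Reads were trimmed (Trimmomatic), mapped to ASM1142v1 (BWA) and freed of optical duplicates (Picard) by the authors, who then merged the replicates and ran MACS2 once. The deposited counts are reads of each library per peak, not normalized. The deposited MACS2 list gives the pileup (a signal never below 0) and the fold enrichment, a ratio of merged IP over local input. The deposited annotation gives a location class (ChIPseeker), and a further table the Pfam domains of each translated peak. The authors' own edgeR table (fold changes, p-values and FDR) was not used.

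Here all 468 peaks were fitted with edgeR 4.0.16 (R 4.3.3, TMM factors, quasi-likelihood test, group only, Benjamini-Hochberg adjustment, threshold 0.05), and exon rows were described. Alternatives were DESeq2 1.42.0, other scalings, stricter thresholds and each library left out. Normalized counts put every library at the mean effective size (library size times TMM factor), and the standard error is the absolute log2 fold change over the square root of F. Peaks were placed on the RefSeq genes of ASM1142v1 by any overlap, and coordinates follow the MACS2 list. The nearest gene in the deposited annotation was not used. On data simulated from the 6 libraries, 100% of 200 peaks changed 1.5-fold or 2-fold were recovered and 9 of 268 unchanged ones were called. On the TMM scale every exon peak differed by less than 1.5-fold (log2 fold changes from -0.50 to 0.55). Recovery of differences that small was not tested. Pairs of IP libraries differed by 4.28 to 11.0 chi-square units per degree of freedom and pairs of input libraries by 1.96 to 2.15, so none was a copy. P-values rest on the spread between biological replicates, which edgeR pools over IP and input and shares across the 468 peaks. They do not measure the spread of each group by itself. Depth here means the total of a library over the 468 peaks.

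Named peaks were the called ones, the 5 highest and lowest log2 fold changes, the 5 highest pileups, the 5 longest, and the highest and lowest of each domain class, with classes set by keywords in domain names. Peaks with a gene symbol, and the others given, were added after their values were seen. The exon peaks, lists and rules were chosen with earlier results of these data known. Python 3.11.15 with pandas 2.3.3, numpy 2.4.6 and matplotlib 3.10.9 made the summaries and plots.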

Additional observations from a re-analysis of the deposited data

How the results depend on the processing

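The main fit called 76 of all 468 peaks, and 21 of these were exon peaks (5 higher, 16 lower in IP). Exon calls became 20 with DESeq2's size factors (75 over all peaks) and 20 with the DESeq2 test (76 over all peaks). They became 27 with edgeR's likelihood ratio test (84 over all peaks) and 22 without the peak with the most counts (78 over all peaks). The filter on low counts removed no peak. With library size alone 29 exon peaks were called (98 over all peaks), 2 higher and 27 lower. The median log2 fold change of exon peaks was then -0.15, and that of all peaks moved to -0.13, against -0.02 with TMM. TMM factors from the other peaks gave 25 exon calls (81 over all peaks), 2 higher and 23 lower, and a median of -0.10. When the median was set to that of MACS2, 461 of all 468 peaks were called. Of the exon peaks 214 were called, all 214 higher and 0 lower, with a median of 0.59, which follows from the construction. Of the 16 peaks called lower, 10 were then called higher. An adjusted p under 0.01 left 8 exon calls (44 over all peaks), 2 higher and 6 lower. At least a 2-fold difference left 0 exon calls in total, 0 higher and 0 lower (5 over all peaks). Without that demand, 40 exon peaks had an unadjusted p under 0.05 (121 over all peaks) and DESeq2 called 20. Leaving out 1 library at a time gave 8 to 44 exon calls (47 to 132 over all peaks), 2 to 13 higher and 6 to 31 lower. The medians then lay between -0.0513 and -0.0233. The difference in the share of counts was -3.91 points without the peak with the most counts, -0.958 for exon peaks with a domain row, -1.71 for those without, and between -2.97 and -2.43 with 1 library left out, an alternative chosen after seeing the data. The replicate block called 23 exon peaks (83 over all peaks), 7 higher and 16 lower. Libraries that share a number are not known to be paired: their deviations correlated at -0.11, -0.05 and 0.03, and 0 of 3 IP libraries correlated best with the input library of its own number. Apart from that rescaling and the 2 stricter thresholds, of 952 values for 68 named peaks, 62 lost a call, 16 gained one and 0 calls changed direction, while 55 changed sign with no call in either fit. The causes of these changes were not tested.

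With 3 libraries per group and a scale set on the peaks themselves, these data show which exon peaks depart from the typical peak, and not whether IP exceeds the rest of the genome.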

Other observations

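Some exon peaks, chosen after their values were seen, carry domains of enzymes of central carbon metabolism. Phosphofructokinase, the control point of glycolysis, was found in the translated peak of AN3223 (chromosome VI, 1365228 to 1367279), with 1088, 1004 and 975 normalized counts in IP, against 972, 1074 and 986 in input, a log2 fold change of 0.02. The log2 fold change was -0.06 for the pyruvate kinase domain peak of AN5210, -0.03 for *acuF* (AN1918), with the phosphoenolpyruvate carboxykinase of gluconeogenesis, and -0.08 for the glucose-6-phosphate dehydrogenase peak of AN2981. The 2 peaks of AN3954, with 6-phosphogluconate dehydrogenase domains of the pentose phosphate pathway, had -0.12 and -0.02. The groups overlapped in each of these 6 peaks. None was called, against 9.55% of all exon peaks, and nothing is read from a count over so few peaks.

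Both exon peaks with an Hsp70 domain, at AN6010 and *hsp88* (AN1047), also have a row for NAD-specific glutamate dehydrogenase, in another reading frame of the same peak (frames numbered 27 and 13 for AN6010, 20 and 8 for AN1047), so a domain row does not always name the protein of the gene. The 2 exon peaks that overlap no RefSeq gene lie on chromosome V (935928 to 936670 and 940788 to 941501) and had log2 fold changes of 0.03 and -0.06.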
